A study of Homo sapiens with 6 samples.

Results

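The genes described here are 10 stress genes chosen by name, the metallothionein genes MT1X, MT1E, MT1F and MT2A and the oxidative stress genes HMOX1, NQO1, TXN, TXNRD1, SRXN1 and GCLM. They are 10 of 24969 genes that the transcript assemblies could be summed to. The choice was by name and not by a measured value, though earlier results of these data were known. HEK293 cells, a line made from human embryonic kidney, were grown at 37°C in DMEM medium. The medium held 10% FBS and a supplement of penicillin, streptomycin and glutamine. For the 3 heat shock libraries, cells taken at passage were kept in a tube at 45°C in a water bath during 30 minutes. The 3 control libraries came from untreated cells. No other treatment is described for the sequenced cells. The labels do not say how long after the bath RNA was taken. The paper places the sequenced cells at 30 minutes after heat shock. Total RNA was depleted of ribosomal RNA and sequenced, and each gene was measured as FPKM, the fragments of RNA per kilobase of transcript, relative to all mapped fragments of the library, so that levels can be compared between genes of different length. The labels do not say that libraries of a group came from separate cultures, so p-values measure the spread between these libraries, which may be technical.

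Metallothioneins are small proteins rich in cysteine that bind zinc, copper and cadmium, and their genes are switched on by the zinc sensor MTF1, which binds short metal response elements in their promoters. The second group belongs to the response to oxidants. The factor NRF2 is normally degraded with the help of KEAP1, and when KEAP1 is modified by oxidants or electrophiles NRF2 reaches antioxidant response elements and raises genes for glutathione synthesis, the thioredoxin system and heme breakdown. Both groups are known as inducible by many stresses, heat among them for HMOX1 and the metallothioneins, and the question here is whether their RNA differed between heat shocked and control cells.

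The 4 metallothionein genes lie on chromosome 16 within 75.6 kb, from the start of MT2A to the end of MT1X, all on the + strand and each with 3 exons (hg19). Their coding sequences are shown because they are so alike that short reads cannot always be assigned to a single member. Each is 186 bases long and holds 61 codons before the stop, 20 of them for cysteine. In the lines below, read on GRCh37 with GENCODE 44, capitals mark the bases that differ from MT2A.
MT2A, chr16:56642568-56643266 with introns removed: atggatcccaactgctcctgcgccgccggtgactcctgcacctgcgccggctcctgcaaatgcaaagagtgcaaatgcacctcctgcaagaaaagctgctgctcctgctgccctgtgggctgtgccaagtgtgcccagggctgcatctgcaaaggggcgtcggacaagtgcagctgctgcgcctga
MT1X, chr16:56716453-56717961 with introns removed: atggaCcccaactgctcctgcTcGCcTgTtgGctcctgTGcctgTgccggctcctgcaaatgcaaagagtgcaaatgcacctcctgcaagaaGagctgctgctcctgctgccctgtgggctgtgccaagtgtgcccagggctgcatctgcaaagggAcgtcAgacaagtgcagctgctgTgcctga
MT1F, chr16:56691971-56693076 with introns removed: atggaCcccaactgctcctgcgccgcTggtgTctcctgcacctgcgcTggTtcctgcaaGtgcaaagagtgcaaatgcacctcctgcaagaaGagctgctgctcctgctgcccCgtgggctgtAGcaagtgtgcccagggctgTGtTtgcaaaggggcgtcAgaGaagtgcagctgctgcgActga
MT1E, chr16:56659764-56660883 with introns removed: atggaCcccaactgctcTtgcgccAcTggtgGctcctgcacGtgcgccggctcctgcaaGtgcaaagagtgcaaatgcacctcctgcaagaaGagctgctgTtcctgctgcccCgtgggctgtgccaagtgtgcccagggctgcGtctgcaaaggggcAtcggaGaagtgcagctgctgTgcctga

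MT1X and MT1E each differed from MT2A at 14 bases and MT1F at 16. The pair least alike was MT1X and MT1F, at 88.7% identity over the coding sequence, and MT2A shared an identical run of 63 bases with MT1X. The levels of MT1X, MT1E, MT1F and MT2A are therefore uncertain to the extent that the authors' assembly split reads between copies.

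The promoters of MT2A and MT1X are shown because they are the 2 metallothionein promoters that the RefSeq table used here holds, and the family's response to metal is known to run through metal response elements. They are the 250 bases before the start site (RefSeq, GRCh38.p14, + strand), and capitals mark matches on either strand to the metal response element, searched as TGCACNC or TGCGCNC.
MT2A promoter, chr16:56608334-56608583: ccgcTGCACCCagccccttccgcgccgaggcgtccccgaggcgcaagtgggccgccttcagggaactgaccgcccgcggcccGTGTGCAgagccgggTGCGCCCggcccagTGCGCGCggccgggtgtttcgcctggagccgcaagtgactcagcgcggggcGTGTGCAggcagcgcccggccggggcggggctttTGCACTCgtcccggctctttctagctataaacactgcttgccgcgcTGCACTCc
MT1X promoter, chr16:56682220-56682469: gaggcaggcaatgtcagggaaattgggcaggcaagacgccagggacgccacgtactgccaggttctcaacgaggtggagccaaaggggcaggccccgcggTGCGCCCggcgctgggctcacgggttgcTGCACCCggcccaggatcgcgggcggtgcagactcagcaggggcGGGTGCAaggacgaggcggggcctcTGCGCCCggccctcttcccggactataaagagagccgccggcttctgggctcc

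The MT2A window held 7 matches and the MT1X window 4. The windows of GCLM and TXN and 1 of the TXNRD1 windows held 1 match each, and those of NQO1 and SRXN1 held none. Of 35116 promoter windows of this length, 24.8% held at least 1 match and 1.58% held 3 or more. The antioxidant response element, searched as TGACNNNGC on both strands, matched in 10.9% of all windows, and among the 7 of 10 genes with a promoter in the table it matched for GCLM, for both windows of TXNRD1, and for MT2A and MT1X. No window of the 7 genes matched the heat shock element, searched as GAA, any 2 bases, TTC, any 2 bases, GAA on both strands, which is in 0.441% of all windows. The windows of the heat shock genes DNAJB1, HSPA1A, HSPA1B and HSPH1 did not match it either. A match is a description of the letters and not a site of binding.

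The libraries differed by more than the treatment before any gene was considered. FPKM of most abundant genes moved together, by a factor common to the library that ran from 0.434 in control replicate 2 to 2.32 in heat shock replicate 2, and that was 0.487 in heat shock replicate 3 (median over 981 genes above 10 FPKM in all 6 libraries). Levels are therefore given after division by this factor, called scaled FPKM, and the values as deposited are given beside them. Single-exon transcripts without a strand numbered over 100000 in control replicates 1 and 2 and heat shock replicate 3 and 17304 to 45600 in the other 3 libraries. Of the genes known from HEK293 cells, the neurofilament genes NEFL and NEFM were detected in all 6 libraries, at 5.03 to 5.70 and 3.31 to 4.22 scaled FPKM. The kidney genes PAX2, LHX1 and EYA1 were low in most libraries and less even, at 0.138 to 8.76, 0.136 to 1.80 and 0.508 to 2.80. The blood marker PTPRC was at most 0.792. The collagen gene COL1A1, a fibroblast marker, was at 1.40 to 7.97 scaled FPKM and the endothelial marker PECAM1 at most 2.01. In bulk RNA, fewer cells that express a gene and less of its RNA per cell cannot be told apart.

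None of the 10 genes passed the test in either direction. Heat shock against control was fitted with limma over 13043 genes on log2(scaled FPKM + 1), and calls needed both an adjusted p under 0.05 and a fold above 2. Of all genes tested, 0% were called higher and 0% lower. The heat shock genes DNAJB1 and HSPA1B, described below, were not called either, so the lack of a call does not show the lack of a change. At an unadjusted p under 0.05, 98 genes (0.751%) were higher and 324 (2.48%) lower, and of the 10 genes only MT1X was among them, on the lower side. The adjusted p-values of the 10 genes in limma lay between 0.911 and 0.987. Their median log2 fold change was -0.19, beside -0.21 over all genes tested. On the scaled values 3 of the 10 were above 0, beside 28.2% of all genes. On the deposited FPKM the median was 0.44, beside 0.45 over all genes, and 7 of the 10 values were above 0, beside 73.0%. None of the 10 was called there either, beside 0.0153% of all genes higher and 0.00767% lower.

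**Figure D1:**
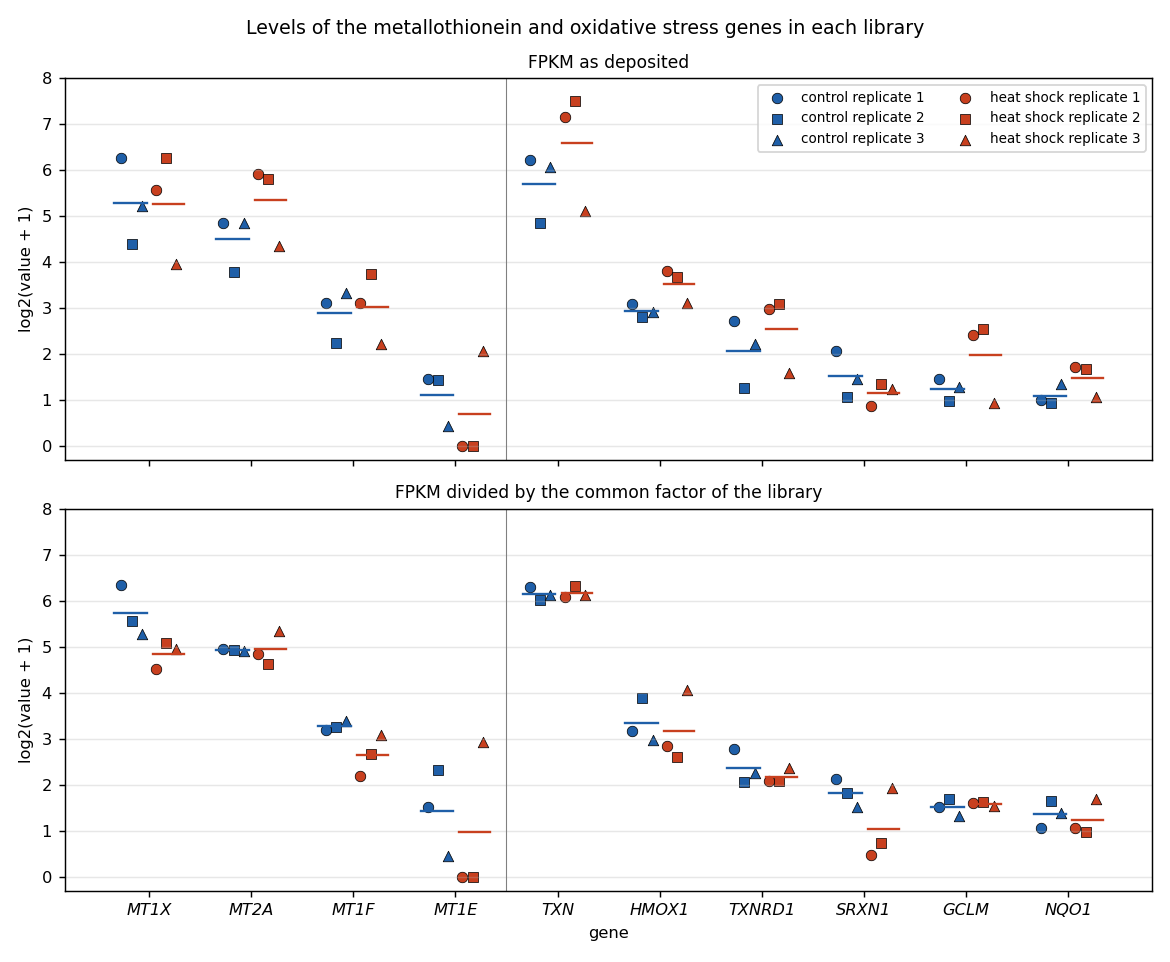
Level of each gene in each library as log2(value + 1), with FPKM as deposited in the upper panel and divided by the common factor of the library in the lower panel; points are single libraries (blue control, red heat shock) and lines are the means of 3. As deposited, the points of a group spread with the library factor, so that heat shock replicate 3 lies below the other 2 heat shock libraries for 8 of 10 genes. After division TXN lies close together in both groups and MT2A in the controls, and MT1X and MT1F are lower in all 3 heat shock libraries.

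Of the metallothioneins, MT1X and MT1F were lower in every heat shock library than in every control library on the scaled values, MT2A was at a like level in both groups, and MT1E was near the limit of detection. These 2 genes were the only ones of the 10 whose groups did not overlap, beside 5.4% of all genes tested that were lower without overlap and 1.99% that were higher. On the deposited FPKM neither was: MT1X and MT1F then overlapped between groups, and 2.25% of all genes were lower without overlap.

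MT1X was the most abundant metallothionein, with a mean of 41.7 scaled FPKM over the 6 libraries. Its scaled FPKM was 80.8, 46.1 and 38.2 in the control libraries and 21.9, 33.01 and 30.2 in the heat shock libraries. The lowest control stood above the highest heat shock library, and control replicate 1 stood well above the other controls. The log2 fold change was -0.88 ± 0.31 (SE, n = 3 and 3), a fold of 0.544 with a 95% interval from 0.318 to 0.930. The adjusted p in limma was 0.911, and the exact permutation test, two-sided, gave p = 0.1, the smallest that 3 libraries against 3 allow. Without control replicate 1 the log2 fold change was -0.57.

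The MT1X difference rested on how assembled transcripts were counted. In control replicate 1 an assembled transcript of 225 bases inside MT1X added 50.7 FPKM as deposited to the 25.1 FPKM of the annotated transcript. On the annotated transcript alone MT1X was at 24.7, 45.1 and 31.3 scaled FPKM in the controls and at 21.2, 31.9 and 29.5 after heat shock, and the groups overlapped, with a log2 fold change of -0.26. In heat shock replicate 1 a further 2 assembled transcripts lay over MT1X but were grouped by Cufflinks with MT1A as well and so were counted to no gene, at 198 FPKM together. The larger had 174.9 FPKM with an interval from 104 to 246, and it joined 1 base in MT1A, at position 56673834 of chromosome 16, to bases 56717934 to 56718100, inside the last exon of MT1X. With both counted to MT1X, an alternative added after the data were seen, heat shock replicate 1 was at 115 instead of 21.9 scaled FPKM and the log2 fold change was -0.10.

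MT1F, a smaller relative of MT1X in level, was at 8.22, 8.62 and 9.44 scaled FPKM in the controls. After heat shock it was at 3.61, 5.37 and 7.48. Every heat shock library lay below every control, and the spread was wider after heat shock. This was a log2 fold change of -0.63 ± 0.27 (SE), with a fold interval from 0.408 to 1.02 and an adjusted p of 0.911 in limma (exact permutation p = 0.1). On annotated transcripts alone its groups overlapped, at 6.08, 3.54 and 9.34 scaled FPKM in control and 3.497, 5.19 and 4.29 in heat shock, with a log2 fold change of -0.39. On the deposited FPKM MT1F was at 7.71, 3.75 and 9.02 in the controls and at 7.69, 12.4 and 3.64 after heat shock, and the log2 fold change turned to 0.13.

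MT2A, the metallothionein usually most widely expressed in human cells, was at 30.0, 29.4 and 29.1 scaled FPKM in the controls. After heat shock it was at 28.02, 23.8 and 39.8. The controls lay within 1 FPKM of each other, and the heat shock libraries lay on both sides of them. Its log2 fold change was 0.016 ± 0.20 (SE), and its fold interval, 0.717 to 1.43, held changes of less than 2-fold only. As deposited, MT2A was at 28.1, 12.8 and 27.8 FPKM in the controls and at 59.7, 55.2 and 19.4 after heat shock, so that heat shock replicates 1 and 2 stood above the controls and replicate 3 did not. The annotated transcript alone gave 27.7, 28.8 and 28.8 scaled FPKM in the controls and 27.1, 23.0 and 18.3 with heat shock, lower without overlap (3.93% of all genes tested on annotated transcripts alone; 5.07% were higher), with a log2 fold change of -0.32. In heat shock replicate 3 an assembled single-exon transcript of 366 bases made up the rest.

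MT1E was at 1.89, 3.98 and 0.371 scaled FPKM in control replicates 1, 2 and 3, and no MT1E transcript was above 0 in heat shock replicates 1 and 2. In heat shock replicate 3 it was at 6.62 scaled FPKM, the highest of all 6 libraries and wholly from assembled transcripts. No direction can be read from these values. The fold interval ran from 0.144 to 3.69.

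**Figure D2:**
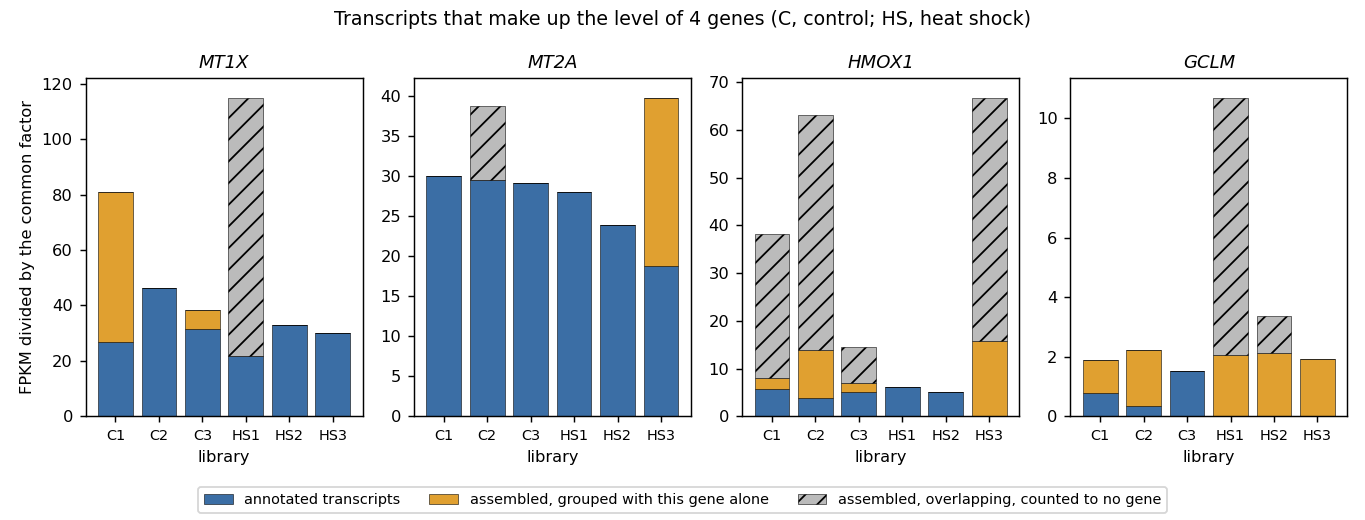
Scaled FPKM in each library (C, control; HS, heat shock; replicates 1 to 3) of MT1X, MT2A, HMOX1 and GCLM, with bars stacked from annotated transcripts (blue), assembled transcripts grouped with that gene alone (orange) and assembled transcripts that overlap it and were counted to no gene (grey, hatched). The level of a gene as used here is blue plus orange. HS1 of MT1X has a hatched bar that would put it above the controls, and the annotated transcript of HMOX1 is at 0 in HS3.

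The rest of the metallothionein family was scarcely detected. Of 11 further metallothionein genes and pseudogenes listed, 1 reached a mean of 1 FPKM as deposited and 6 a mean of 1 scaled FPKM, and 7 of the 11 were listed at 0 in both heat shock replicates 1 and 2. The highest level of any of them was 7.52 scaled FPKM, and in heat shock replicates 1 and 2 it was 0.184. These 2 libraries also held the fewest transcripts without a strand, and the part of such transcripts in the values was not tested. MTF1, which senses zinc and drives the family, was chosen to be shown after its values were seen: it was at 0.918, 2.07 and 1.20 scaled FPKM in the controls and at 0.316, 0.326 and 5.04 after heat shock. Of the 14 genes of that list 4 were tested and none was called or was without overlap.

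Among the oxidative stress genes, TXN stayed within a narrow range in all 6 libraries. For HMOX1 and SRXN1 heat shock replicate 3 stood well above heat shock replicates 1 and 2. For HMOX1 control replicate 2 also stood above the other controls. SRXN1, GCLM, NQO1 and TXNRD1 were low in both groups. On the scaled values the groups of each of these genes overlapped. As given below, HMOX1 was higher without overlap as deposited, beside 3.7% of all genes. SRXN1 was lower without overlap on its annotated transcript alone, beside 3.93% of all genes there.

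TXN encodes thioredoxin, the small redox protein that reduces disulfides in other proteins, and with a mean of 71.0 scaled FPKM it was the most abundant of the 10 genes. It was at 78.3, 64.4 and 69.1 scaled FPKM in the controls. After heat shock it was at 66.9, 78.8 and 68.8. The groups overlapped throughout, and the highest library was 1.22 times the lowest. The log2 fold change was 0.020 ± 0.12 (SE), and the fold interval, 0.826 to 1.24, was the narrowest of the 10. The deposited FPKM of TXN was 73.4, 27.97 and 66.0 in control and 142, 183 and 33.5 in heat shock libraries, with a log2 fold change of 0.88 and an adjusted p of 0.710 in limma.

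TXNRD1 encodes thioredoxin reductase, the enzyme that returns thioredoxin to its active form. It was at 5.93, 3.20 and 3.81 scaled FPKM in the controls and at 3.27, 3.24 and 4.18 after heat shock. Control replicate 1 stood highest, and the other 5 libraries lay between 3.20 and 4.18. The fold interval ran from 0.543 to 1.41. Strandless single-exon transcripts lay between the ends of TXNRD1 and were counted to no gene, at 915, 148 and 620 FPKM as deposited in the controls and at 875, 0 and 199 after heat shock. None of these met an annotated TXNRD1 exon, and nearly all of that FPKM was in transcripts of 133 to 164 bases at chr12:104659528-104659692. On the deposited FPKM the log2 fold change of TXNRD1 was 0.50, against -0.19 on the scaled values.

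SRXN1 encodes sulfiredoxin, which repairs over-oxidized peroxiredoxins. It was at 3.40, 2.54 and 1.86 scaled FPKM in the controls and at 0.396, 0.674 and 2.80 after heat shock. Heat shock replicates 1 and 2 lay below all controls, and replicate 3 lay among them. Its log2 fold change was -0.77 ± 0.46 (SE), with a fold interval from 0.267 to 1.28 (adjusted p = 0.911 in limma). Without heat shock replicate 3 it was -1.28. On the annotated transcript alone the heat shock libraries were at 0.384, 0.651 and 0.723 scaled FPKM and the controls at 2.05, 0.902 and 1.84, lower without overlap as were 3.93% of all genes there. SRXN1 was also lower on the deposited FPKM, by a log2 fold change of -0.38.

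HMOX1 encodes heme oxygenase, which breaks down heme and is a classic marker of oxidative and heat stress. Its scaled FPKM was 8.03, 13.8 and 6.87 in control and 6.16, 5.11 and 15.7 in heat shock libraries. Heat shock replicates 1 and 2 were the lowest of the 6 libraries and replicate 3 the highest. The log2 fold change was -0.18 ± 0.46 (SE), with a fold interval from 0.401 to 1.95. On the scaled values a rise of 2-fold or more therefore lay outside the interval. HMOX1 was the only gene of the 10 that was higher without overlap on the deposited FPKM, with 7.53, 6.01 and 6.57 in control and 13.1, 11.8 and 7.64 in heat shock, beside 3.7% of all genes on that scale. There the log2 fold change was 0.60, with an adjusted p of 0.710 in limma, and the interval did not end under a 2-fold rise. In heat shock replicate 3 the annotated HMOX1 transcript was listed at 0 and the whole level came from assembled transcripts. Transcripts without a strand over HMOX1 came to 28.3, 21.4 and 7.29 FPKM as deposited in the controls, to 0 in heat shock replicates 1 and 2, and to 24.8 in replicate 3. Of these 25 transcripts 2 met an annotated exon, and their part in the level was not tested.

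NQO1 encodes the quinone reductase that is a standard target of NRF2. It was at 1.08, 2.13 and 1.62 scaled FPKM in the controls and at 1.08, 0.959 and 2.23 after heat shock. The groups overlapped over nearly their whole range. The fold interval ran from 0.523 to 1.61.

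GCLM encodes the modifier subunit of glutamate cysteine ligase, the first enzyme of glutathione synthesis. It was at 1.88, 2.23 and 1.504 scaled FPKM in the controls and at 2.05, 2.11 and 1.91 after heat shock. All heat shock values lay within the range of the controls. Its log2 fold change was 0.083 ± 0.25 (SE), with a fold interval from 0.695 to 1.61. In every heat shock library the annotated GCLM transcript had 0 FPKM, and the level there came from assembled transcripts alone. On the deposited FPKM GCLM was at 4.37 and 4.89 in heat shock replicates 1 and 2, above all controls, and at 0.929 in replicate 3, below all of them.

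**Figure D3:**
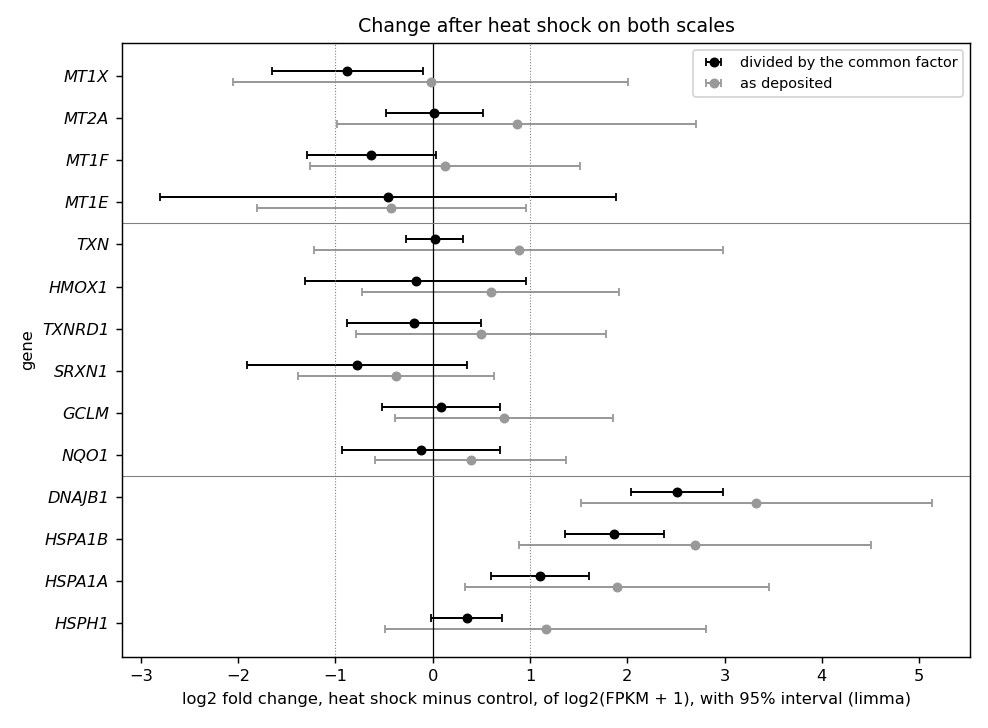
Log2 fold change of log2(FPKM + 1), heat shock minus control, with 95% intervals from limma, for the 10 genes and 4 heat shock genes, on scaled FPKM (black) and on FPKM as deposited (grey); dotted lines mark 2-fold. On scaled FPKM the intervals of 5 of the 10 genes lie wholly between the dotted lines, and those of DNAJB1 and HSPA1B lie wholly above a 2-fold rise.

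The range of change that the intervals covered differed between genes. On the scaled values 9 of the 10 intervals ended under a 2-fold rise, MT1E being the exception, and 5 lay wholly within a 2-fold change in either direction, those of MT2A, NQO1, TXN, TXNRD1 and GCLM. On the deposited FPKM 2 of the 10 intervals ended under a 2-fold rise, those of MT1E and SRXN1. All of these intervals are on the log2(value + 1) scale, which understates the change of genes near or under 1 FPKM, and 5 of the 10 genes had a mean under 5 scaled FPKM.

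The scaled values were also compared between libraries of like make-up. Among the 3 libraries with fewer transcripts without a strand, 8 of the 10 genes were lower in both heat shock replicates 1 and 2 than in control replicate 3, and 1 was higher in both, beside 59.4% and 19.8% of all genes. Among the 3 with more, 2 were lower in heat shock replicate 3 than in both control replicates 1 and 2, and 4 were higher, beside 23.2% and 38.4% of all genes. In each set a group was a single library, so neither count was tested. With a term for this split in the fit, the log2 fold change of MT1X was -0.74, that of MT1F -0.55 and that of HMOX1 0.14. Without heat shock replicate 3, 6 of the 9 genes then tested were lower without overlap and none higher, beside 40.1% and 4.78% of all genes.

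Heat shock genes are given for comparison. DNAJB1, a co-chaperone of HSP70 induced by heat, was at 7.81, 11.1 and 9.60 scaled FPKM in the controls and at 56.7, 50.2 and 69.8 after heat shock. HSPA1B, a gene for inducible HSP70, was at 9.21, 15.2 and 9.99 in the controls and at 40.6, 43.2 and 47.1 after heat shock. All heat shock libraries stood far above all controls for both, with log2 fold changes of 2.51 ± 0.19 and 1.87 ± 0.21 (SE). Neither was called, with adjusted p-values of 0.133 and 0.232 in limma. HSPA1A, a near-identical copy of HSPA1B whose reads cannot always be told from it, had a log2 fold change of 1.099 ± 0.20 (SE) and HSPH1, a nucleotide exchange factor for HSP70, 0.35 ± 0.15 (SE). Of the 12 genes of the heat shock list 11 were tested, and all 11 log2 fold changes were above 0 (28.2% of all genes were). Of the 11, 6 were higher without overlap (1.99% of all genes were), and the list median was 0.35, beside -0.21 over all genes.

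The wider antioxidant pathway held no called gene. Of 25 genes of the NRF2 and glutathione list, all 25 were tested, none was called, 1 was lower without overlap (5.4% of all genes were), and the median log2 fold change was -0.068. That gene, no more than the background share would give, was ABCC1, an exporter of glutathione conjugates, at 3.01, 7.15 and 2.70 scaled FPKM in control and at 1.997, 0.901 and 1.87 with heat shock. Of the 24 genes of the peroxiredoxin and thioredoxin list, none was called, 2 were higher without overlap (1.99% of all genes were), and the median was -0.0012. TXNIP, which binds and inhibits thioredoxin, was at 4.34, 4.56 and 3.502 scaled FPKM in the controls and at 6.82, 4.58 and 7.09 after heat shock. GLRX2, a mitochondrial glutaredoxin, was at 13.6, 15.2 and 12.5 in the controls and at 15.3, 15.98 and 58.9 after heat shock, so that heat shock replicate 3 made most of its difference. Of the 10 genes of the heme and iron list 9 were tested, with none called, none without overlap and a median of -0.053. These medians are on the scaled values. As deposited, the medians of the NRF2 and glutathione, the peroxiredoxin and thioredoxin, and the heme and iron lists were 0.64, 0.83 and 0.76, beside 0.45 over all genes, again with none called.

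**Figure D4:**
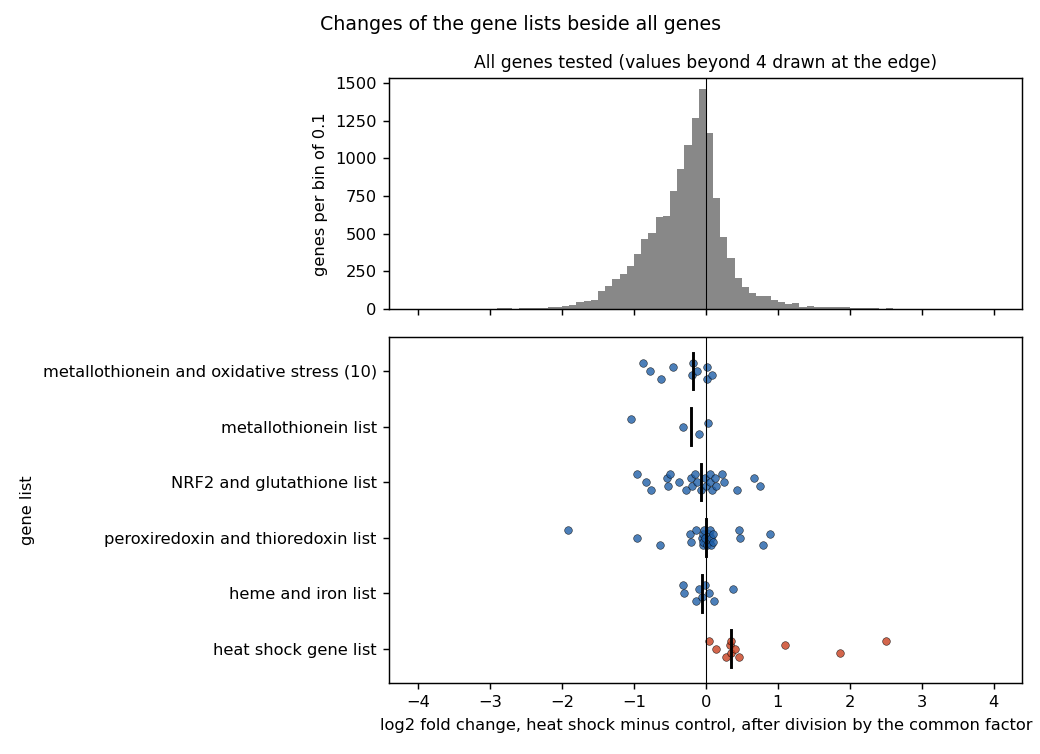
Log2 fold change on scaled FPKM, heat shock minus control: above, all 13043 genes tested in bins of 0.1 (counts on the vertical axis); below, each point is a gene of the list named on the vertical axis and black bars are list medians. The 10 metallothionein and oxidative stress genes have a median of -0.19, near that of all genes (-0.21), and all 11 heat shock genes tested lie above 0.

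Levels of several abundant antioxidant genes were steady between libraries once scaled, chosen here after their values were seen. PRDX1, the main cytosolic peroxiredoxin, ran from 192 to 224 scaled FPKM, GSTP1, a glutathione transferase, from 126 to 143, and FTH1, the ferritin heavy chain, from 209.9 to 234. By mean scaled FPKM, a level per length, TXN lay below these 3 genes and above MT1X and MT2A. The order of the 10 genes by mean scaled FPKM was TXN, MT1X, MT2A, HMOX1, MT1F, TXNRD1, MT1E, GCLM, SRXN1 and NQO1. TXN stood above all values of MT2A in every library, while MT1X and MT2A overlapped, HMOX1 and MT1F overlapped, as did MT1E, GCLM, SRXN1 and NQO1 with each other. TXNRD1 stood above GCLM and NQO1 in every library.

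The genes most like TXN across the 6 libraries, among 2906 genes averaging 10 FPKM or more, were CKS2, MYL6 and RPL14, whose centred log2 levels differed from those of TXN by 0.045, 0.050 and 0.054 on average. For MT1X they were PRKAG2-AS1, POLR3E and CSNK1A1, at 0.197, 0.200 and 0.217. The likeness is over 6 libraries that share the scaling factor and is given as a description.

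The authors' table of the merged groups holds 1 pooled FPKM for each group and no replicates. Its values for TXN were 75.7 in control and 340 in heat shock, for MT2A 32.8 and 144, for HMOX1 8.77 and 28.1, and for GCLM 1.59 and 7.06. Those for MT1F were 9.03 and 24.2, for NQO1 1.29 and 3.77, and for TXNRD1 3.19 and 13.8. SRXN1 differed less, at 2.08 and 2.82, and MT1E was lower in heat shock, at 0.752 and 0.0851. The pooled values of all other loci were not summarized beside these. For 9 of the 10 genes the pooled heat shock value stood above every single heat shock library as deposited, and for 4 the pooled control value stood above every single control library. MT1X shares its locus in that table with MT1A and MT1JP, at 61.9 and 275. These values carry no error and were normalized apart from the single libraries, so the difference between the groups was not tested in them.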

How the data were processed

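RNA from 3 control and 3 heat shock HEK293 libraries was analysed, grouped by their labels. The authors trimmed reads with Trimmomatic 0.3.0, aligned them with TopHat2 to hg19 and made an assembly per library (Cufflinks 2.0.2). The deposited value of each transcript is an FPKM that was not scaled between libraries; the read depth is not given in the sources used here, and by coverage per FPKM the libraries spanned 2.03-fold. Other attributes of these assemblies (intervals, coverage) are as deposited. The authors' table of the merged groups holds a pooled FPKM per group, and its fold changes and p- and q-values were not used. No value column was left unmapped (0).

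FPKM was summed per gene over annotated transcripts and the assembled transcripts Cufflinks had grouped with that gene alone. Each library was divided by its common factor, the median ratio over 981 genes above 10 FPKM in all 6 libraries, since as deposited this factor differed more within groups than between them. Genes averaging 1 FPKM or more (13043) were fitted with limma 3.58.1 (R 4.3.3; lmFit, eBayes with a trend) on log2(value + 1), with Benjamini-Hochberg adjustment. Exact permutation tests were two-sided. Whether counting used strand is not given in the sources used here, so overlapping genes cannot be told apart.

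The genes, lists and tests were chosen with earlier results of these data known. Named were all 10 genes; from each list the genes called, otherwise up to 4 with the largest change among those without overlap; 4 heat shock genes; and the 3 genes most like MT1X and TXN. Genes outside this rule are said to be chosen after their values were seen. Alternatives were other scalings, pseudocounts, minima, transcript sets, a term for library make-up, a replicate block, and leaving out each library. The replicate numbers were not taken to pair the libraries, since the labels do not say whether they do.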

Additional observations from a re-analysis of the deposited data

Results flagged for a closer look

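Assembled transcripts that have an exon within a gene's ends but were counted to no gene stood above the level in the controls at 2 of the 10 genes. At MT1X they came to 198 FPKM as deposited in heat shock replicate 1 and to 0 in the other 5 libraries. At GCLM transcripts without a strand, none of them meeting an annotated exon, came to 18.4 FPKM in heat shock replicate 1 and 2.91 in heat shock replicate 2, and to 0 in heat shock replicate 3 and all controls. Larger sums lay within TXNRD1, up to 915 FPKM, and within HMOX1, up to 28.3 FPKM, but there the highest library was a control. None of these signals was tested between the groups.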

How the results depend on the processing

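No alternative called any of the 10 genes: over 150 recomputed fold changes the smallest adjusted p in limma was 0.117, and 129 kept the sign of the scaled fit. Over all genes, 2 were called higher and 1 lower on FPKM as deposited, 1 higher with median-of-ratios over all genes above 0 and 1 higher on TPM. Without adjustment 98 genes were higher and 324 lower, with 1 of the 10 (MT1X) lower and 5 heat shock genes higher. The higher share of those unadjusted genes was 23.2% on scaled values, 55.9% as deposited, 47.4% with median-of-ratios and 18.1% on TPM. Of the 10 genes, 1 was higher without overlap as deposited, beside 3.7% of all genes. Leaving out a library gave 0 to 1, with 1 without control replicate 2, where 4.59% of all genes were higher without overlap. Lower without overlap were 0 as deposited, 0 with median-of-ratios and 0 on TPM, beside 2.25%, 2.56% and 4.52% of all genes. At a minimum of 10 FPKM it was 1 of the 3 genes then tested, beside 5.57% of all genes. With the grouped transcripts counted to MT1X it was 1 of the 10, beside 5.41%. Leaving out a library gave 2 to 6, beside 7.69% to 40.1% of all genes, both highest without heat shock replicate 3. Leaving out that library also moved the unadjusted calls to 154 higher and 2664 lower.

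Signs turned as follows (log2 fold change): as deposited for MT1F 0.13, HMOX1 0.60, NQO1 0.39 and TXNRD1 0.50; with median-of-ratios for HMOX1 0.20, NQO1 0.11 and TXNRD1 0.14; with the term for library make-up for MT1E 0.28 and HMOX1 0.14; on annotated transcripts alone for MT2A -0.32. Leaving out a library gave -0.95 to 0.063 for MT1E, -0.17 to 0.17 for MT2A, -0.62 to 0.10 for HMOX1, -0.36 to 0.016 for NQO1, -0.052 to 0.094 for TXN, -0.36 to 0.013 for TXNRD1 and -0.011 to 0.18 for GCLM, while MT1X (-1.10 to -0.57), MT1F (-0.85 to -0.40) and SRXN1 (-1.28 to -0.46) kept their sign. The cause of these turns was not tested. On annotated transcripts alone MT1E, NQO1 and GCLM fell under the minimum.

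The labels number the replicates 1 to 3 in both groups, but same-numbered libraries did not deviate together (correlations -0.054, -0.051 and -0.15 over 2906 genes). With the replicate block 0 genes were called, and 2 of the 10 genes remained lower without overlap by construction.

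Low levels limit MT1E, NQO1, SRXN1 and GCLM, where 0 can mean that nothing was assembled.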
